A study of Mus musculus with 5 samples.

Results

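Il9 (ENSMUSG00000021538), the gene of the cytokine interleukin-9, was followed in single lung group 2 innate lymphoid cells (ILC2s) of mice with and without a tumour. It was picked by its measured levels in these libraries, since it changed in opposite directions with culture in weeks 2 and 3, so every level given here is a description and carries no test. It is 1 gene of 27726 in the count tables, and 445630 of its transcripts were counted as unique molecular identifiers (UMIs) in 16530 cells.

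All mice were WT C57BL/6 females of a few weeks of age, and each of the 5 libraries came from cells pooled over 5 mice. The sorted cells were negative for lineage markers and positive for CD45, Thy1.2, CD127 and ST2, the receptor for IL-33. The naive library came from mice without a tumour, and its cells were not activated. The 4 tumour-associated (ta) libraries came from mice that carried subcutaneous TC1 cells, a lung-derived tumour line, in the flank, with the lungs and not the tumour as the source of the ILC2s. At week 2 and at week 3 of tumour growth, 1 library was made from freshly isolated cells (ta-non-activated, also called fresh) and 1 from cells kept ex vivo for a week with rhIL-2, rmIL-33 and TSLP (ta-activated, also called cultured). Activation therefore stands for culture, time and added cytokines at once, which cannot be told apart here. With 1 library for each week and condition, the intervals below cover counting error only and say nothing of the spread between mice.

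Interleukin-9 signals through a receptor built of IL-9R and the common gamma chain, which passes the signal to JAK1, JAK3 and STAT proteins. In the lung it acts on mast cells, goblet cells and ILC2s themselves, and ILC2s are a known source of it shortly after an IL-33 or IL-2 stimulus. Its production is known to be brief, and IRF4, PU.1, BATF, GATA3 and STAT5 are among the factors known to act on the gene in T cells.

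In GRCm38 with the GENCODE M21 models, Il9 lies on the minus strand of chromosome 13 from 56479277 to 56482246. It has 5 exons that add up to 536 bases, of which 432 are coding, with a 5′ UTR of 15 bases and a 3′ UTR of 89 bases. The promoter is shown because the factors examined below, among them IRF4, BATF, STAT5, GATA3 and PU.1, are known to bind promoters of this kind. It is the RefSeq (GRCm38.p6) sequence of chr13:56482208-56482507 on the minus strand, from 250 bases before to 50 bases after the RefSeq start, and capitals mark the only match to the AP-1 letters TGANTCA, which begins at position -140.

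Il9 promoter: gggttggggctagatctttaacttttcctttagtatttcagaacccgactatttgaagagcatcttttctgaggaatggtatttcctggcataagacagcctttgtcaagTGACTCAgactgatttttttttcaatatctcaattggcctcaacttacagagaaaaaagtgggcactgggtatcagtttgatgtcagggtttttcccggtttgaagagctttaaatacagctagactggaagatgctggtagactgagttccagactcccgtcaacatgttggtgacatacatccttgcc

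On both strands, 7.81% of 32851 mouse promoters of this length held the AP-1 letters. The NFAT letters GGAAA matched 3 times, from -227 to -49, and 61.3% of promoters held them. The window did not hold TTCNNNGAA, a form of the letters read by STAT proteins, AGAGGAA, a form of those of PU.1, or GAAANNGAA, a form of those of IRF proteins. Nor did it hold those of GATA3 and its relatives, given by AGATAA, or the core promoter element spelled TATAAA, and each of these 5 was in 8.30 to 13.6% of promoters. Only these exact spellings were searched, so forms with another letter or spacing, as in the stretch ttctgaggaa of the window, were not counted. These matches describe letters and not bound sites.

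Of 18628 deposited barcodes, 16530 (88.7%) had 200 or more genes and under 5% mitochondrial counts and were kept, from 1601 cells in the fresh week 3 library to 6389 in the naive library. The median cell held 4396 to 4517 UMIs in the week 3 ta-non-activated and naive libraries and 12296 to 16090 in the other 3. A total of 35 kept barcodes occurred in more than 1 library, and 7 of them were cells with an Il9 UMI, each in the fresh week 2 library. A list of 14 ILC2 markers, among them Il1rl1 (ST2), Gata3, Rora, Il5 and Il13, summed to between 9406 and 12412 CPM (UMIs of a gene divided by all UMIs of the group of cells and scaled to 1e6) in 4 libraries and to 2004 CPM in the fresh week 3 library. Il13 alone was at 8861 CPM in the fresh week 2, 19.6 CPM in the fresh week 3 and 55.6 CPM in the naive library. The sum therefore follows the cytokine genes as well as the cell type, and the gap between the fresh ta libraries was mostly Il13. In the fresh week 3 library, 712 of 1601 cells formed an early-thymocyte-like cluster, and the list of 12 T cell markers summed to 6353 CPM, against 372 to 1250 CPM elsewhere. The label ILC2 therefore covers only part of that library, and its Il9 values are given below for its ILC2-like cells as well.

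Il9 was the most abundant transcript of the fresh week 2 library and was near or at 0 in the other freshly isolated libraries. In the naive library, 3 Il9 UMIs gave a level of 0.0926 CPM (95% exact Poisson interval 0.0191 to 0.271). In the fresh week 2 library, 417918 UMIs gave 12576 CPM (12538 to 12615), or 1.26% of all transcripts counted. In the fresh week 3 library no Il9 UMI was found among 9394957, which allows a level of up to 0.319 CPM (3 UMIs, the limit used for every count of 0). Only the first and the last of these overlap, so naive and week 3 cells could not be told apart by Il9 at this depth. The ta-activated libraries lay between. At week 2 the level was 114.61 CPM (111.85 to 117.41) from 6573 UMIs, and Il9 ranked 1218 among all genes. At week 3 it was 341.84 CPM (337.25 to 346.48) from 21136 UMIs, with a rank of 393. In descending order the libraries were thus week 2 ta-non-activated, week 3 ta-activated, week 2 ta-activated, and then naive and week 3 ta-non-activated together.

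The direction of the difference between fresh and cultured cells turned between the weeks. At week 2 the ta-non-activated level was 109.73-fold higher than the ta-activated one (counting interval 107.09 to 112.46). At week 3 the ta-activated level was at least 1070.5-fold higher than the ta-non-activated one, with the latter set to the limit of 3 UMIs in the library. Between the fresh libraries, week 2 was at least 39385-fold higher than week 3, whereas between the cultured libraries week 3 was 2.98-fold higher than week 2 (2.90 to 3.07). Averaged by group, Il9 stood at 6288 ± 8893 CPM in ta-non-activated (SD, n = 2) and at 228.22 ± 160.68 CPM in ta-activated cells (SD, n = 2), so the spread between weeks was larger than the mean in the fresh group. These contrasts chose the gene and were not tested. Of 18230 genes with a UMI in a ta library, 828 (4.54%) were likewise lower in culture at week 2 and higher at week 3, with counting intervals apart in both weeks.

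**Figure D1:**
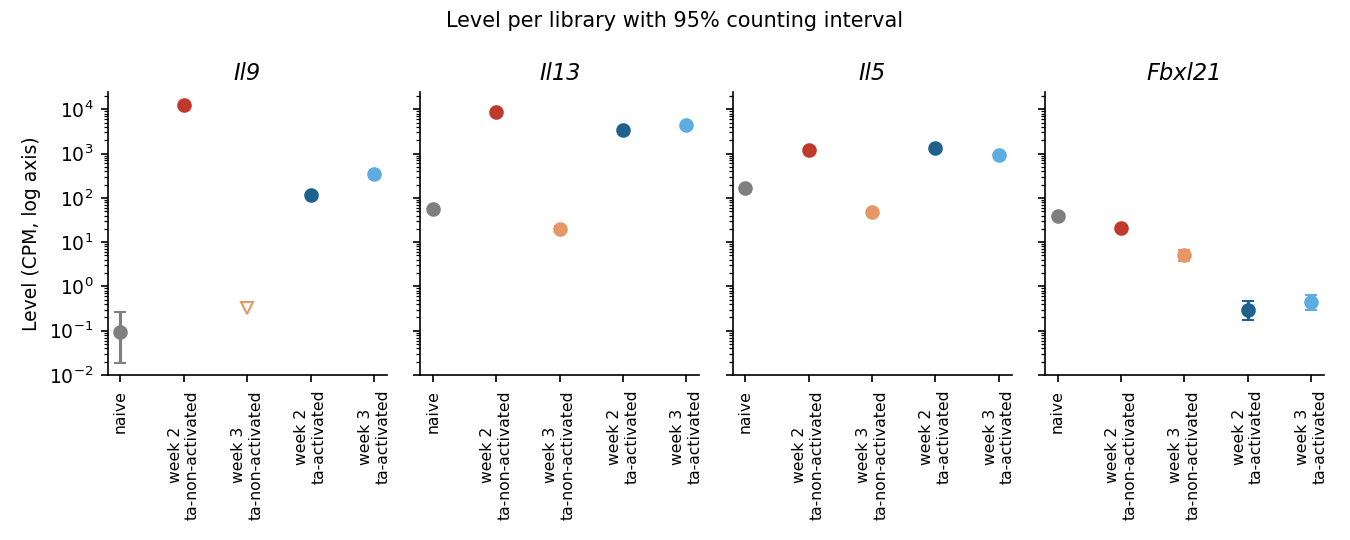
Level (CPM, log axis) of Il9, of the type-2 cytokine genes Il13 and Il5, and of Fbxl21, the expressed gene nearest to Il9, in each of the 5 libraries, as points with 95% Poisson intervals that cover counting error only. The Il9 point is at 12576 CPM in the fresh week 2 library, at 114.61 and 341.84 CPM in the ta-activated libraries and at 0.0926 CPM in the naive library, and the open triangle marks the upper limit of 0.319 CPM for 0 UMIs at week 3.

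The library levels rested on very different numbers of cells. Before any correction for depth, at least 1 Il9 UMI was found in 1072 of 1823 cells (58.8%) of the fresh week 2 library, in 71 of 2895 (2.45%) of the week 2 ta-activated and in 178 of 3822 (4.66%) of the cultured week 3 library. It was found in 1 of 6389 naive cells and in 0 of 1601 week 3 ta-non-activated cells, which allows a share of up to 0.187%. With each cell thinned to 2000 UMIs and shallower cells left out (14 to 242 cells per library), the shares were 38.0% (688 of 1809, exact binomial interval 35.8 to 40.3) for week 2 ta-non-activated, 0.992% (28 of 2822) for week 2 ta-activated and 1.75% (65 of 3714) for week 3 ta-activated cells. The thinned naive library held 1 cell with a UMI of 6147 and the fresh week 3 library 0 of 1495, which allows up to 0.201%. The order of the libraries was the same with and without thinning.

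Within the fresh week 2 library the cells fell into a low and a high range with few between them. Per 10000 UMIs of the cell, Il9 was 0 in 751 cells and above 0 to 5 in 459, and the 1210 cells of these ranges together held 734 UMIs of Il9. The next range, 5 to 20 per 10000, held only 61 cells. Above it stood 160 cells at 20 to 100, 264 cells at 100 to 500 and 128 cells at 500 or more. The last 128 cells, 7.02% of the library, carried 49.9% of its Il9 UMIs. Cells at 20 or more per 10000, called Il9-high from here on, numbered 552 (30.3%, 28.2 to 32.4) and carried 99.5% of the Il9 UMIs. Free RNA in the droplets can give 1 or 2 UMIs of so abundant a transcript to cells that do not make it. In this library an Il9 UMI was found in 3 of the 14 cells that fell into cluster 3 and in 1 of the 9 that fell into cluster 6, clusters at 0 to 5.04 CPM of Il9 in the other libraries and a median of 5260 and 1158 UMIs per cell. Cluster 1, at 0 to 9.66 CPM in the other libraries, had an Il9 UMI in 3 of its 6 cells here, with 387 UMIs in all and 1 Il9-high cell. The clusters were built with Il9 among the variable genes. The part of free RNA in the low counts was not tested, and the share of 58.8% is not read as a share of producing cells. The cell of cluster 6 had 2 Il9 UMIs and was shallow enough to count as Il9-high, and it was the only 1 of the 552 with 2 or fewer.

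The highest cell of the fresh week 2 library held 4118 Il9 UMIs among 29177, so that 14.1% of its transcripts were Il9. The top 8 cells held 2822 to 4118 each, all in the ILC2-like cluster, with 111 to 1434 UMIs of Il13 beside them and none of Cd3e, a T cell receptor component, or Cpa3, a mast cell protease. Cpa3 had no UMI in any cell of this library, so its absence does not set these cells apart. The 10 highest cells carried 7.83% of the library's Il9.

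In culture the signal came from a handful of cells. In the cultured week 2 library 15 of 2895 cells (0.518%) were Il9-high and carried 93.8% of the Il9 UMIs, and in the cultured week 3 library 27 of 3822 (0.706%) carried 94.5%. A single cell with 1588 UMIs gave 24.2% of the week 2 total, and a single cell with 4914 UMIs among 81818 gave 23.2% of the week 3 total. The 10 highest cells held 84.5% and 72.7%. The difference in level between the cultured libraries therefore rested on few cells, and the shares of Il9-high cells had overlapping intervals (0.290 to 0.855% and 0.466 to 1.03%).

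**Figure D2:**
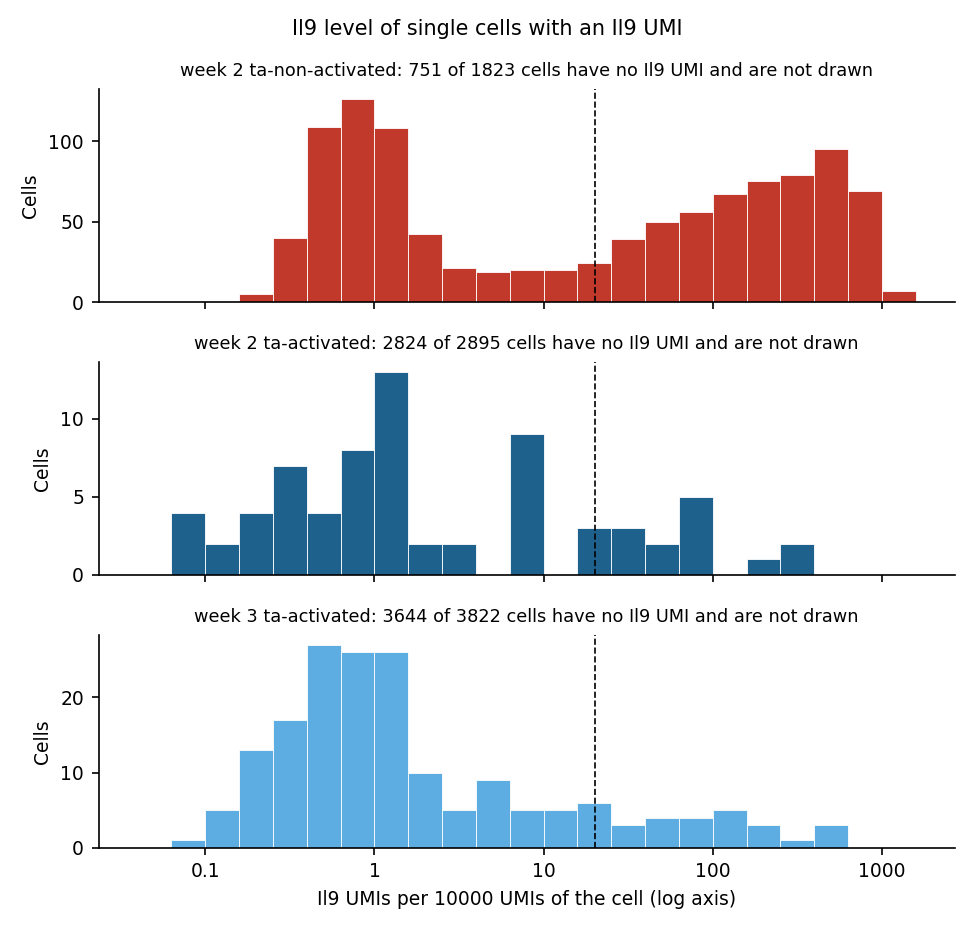
Number of cells (vertical axis, a scale for each library) by Il9 UMIs per 10000 UMIs of the cell (log axis) in the week 2 ta-non-activated and both ta-activated libraries, with the 751, 2824 and 3644 cells without an Il9 UMI not drawn and a dashed line at 20 per 10000. The fresh week 2 library has 1 peak near 1 and another between 100 and 1000 per 10000, with 552 cells at 20 or more, while the ta-activated libraries hold 15 and 27 cells there.

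Il9-high cells held more UMIs than the other cells of their library. The median Il9-high cell had 21487 UMIs against 13840 for the rest in the fresh week 2 library, 43539 against 13570 in the week 2 ta-activated and 55052 against 12237 in the cultured week 3 library. Their median mitochondrial share was close to that of the rest (1.56 and 1.74% in the fresh library). Of the cells above the cut for the highest 6% of doublet scores, with ties at the cut left out, 29 of 83, 1 of 173 and 1 of 217 were Il9-high in these libraries. Of all cells, 30.3, 0.518 and 0.706% were Il9-high. The Il9-high cells carried ILC2 markers at 12320, 11813 and 11148 CPM in sum, with 14, 14 and 13 of the 14 detected (Il17rb was at 0 in the last). The other cells were at 12477, 10843 and 11105 CPM. Il13 is on this list and was at 8861, 3502 and 4318 CPM over all cells of these libraries, so much of each sum was Il13. The mast cell and basophil list summed to 25.7, 212 and 13.8 CPM in them, against 35.5, 134 and 39.6 CPM in the other cells. Its members Cpa3, Mcpt4, Tpsb2, Fcer1a and Ms4a2 were at 0 in all 3 groups of Il9-high cells, with 2, 2 and 4 of the 10 members detected, against 3, 5 and 6 in the other cells. Mcpt4, Fcer1a and Ms4a2 had no UMI in any cell of these 3 libraries, and Cpa3 and Tpsb2 had none in any cell of the fresh one. Those zeros therefore do not set the Il9-high cells apart. The NK cell or ILC1 list was at 48.6, 81.3 and 301 CPM, against 57.9, 110 and 153 CPM in the other cells, with 10, 7 and 2 of its 11 members detected. The type 17 lymphocyte list was at 296 against 163 CPM in the fresh library, at 0 against 28.7 CPM in the cultured week 2 library and at 3083 against 68.8 CPM in the cultured week 3 library, where Il22 was the only member of 6 detected in the Il9-high cells. In the fresh library Il22 gave 4064 of the 4089 UMIs of this list in the Il9-high cells and 3060 of 3160 in the others. The difference there was thus one of Il22 and not of the list as a whole. The part of these markers in the results was not tested.

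Il9 was spread over clusters of the fresh week 2 library and was not found in any cluster of the fresh week 3 library. The clusters were built with Il9 among the variable genes, so its level in them is a description. In the fresh week 2 library the ILC2-like cluster stood at 12832 CPM (880 of 1508 cells with a UMI), the proliferating cluster at 12383 CPM (154 of 222) and the NK- or ILC1-like cluster at 9971 CPM (30 of 63). Proliferating cells made up 14.1% of the Il9-high cells (11.3 to 17.3) and 11.3% of the others (9.64 to 13.2), intervals that overlap. In the fresh week 3 library the 529 ILC2-like cells had no Il9 UMI, which allows up to 1.89 CPM, and neither had the 712 early-thymocyte-like cells, with a limit of 0.614 CPM. The 0 of that library was thus not limited to the cells that are unlike ILC2s.

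In the cultured libraries the ILC2-like clusters were at 191.27 CPM in week 2 and at 368.56 CPM in week 3. The proliferating clusters were at 16.4 and 302.86 CPM. The NK- or ILC1-like cluster held no Il9 UMI in 106 cells at week 2 and stood at 1258.5 CPM at week 3, where 1 of its 43 cells carried 927 of 939 UMIs. No UMI was seen in the endothelial-like cells, 34 and 22 of them, whose median depth was under 1000 UMIs.

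Which genes rose with Il9 from cell to cell was examined within each library, with every cell thinned to 5000 UMIs and Pearson's r taken between log2(UMIs + 1) of Il9 and of each gene with a UMI in at least 5% of the cells. All cells of a library share its preparation, its free RNA and, after thinning, its depth, and the cells of 1 library are not replicates, so r is a description and has no p. In the fresh week 2 library (1746 cells) the median r over 6420 genes was -0.0046. An r of 0.2 or more was reached by 20 genes, or 0.312% of those examined, and 42 genes (0.654%) reached -0.2 or less.

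The 20 rising genes were led by Npm1 (r = 0.41), Fbxl21 (0.40), Ncl (0.34) and Hspd1 (0.30). Npm1 and Ncl encode nucleophosmin and nucleolin, which serve ribosome assembly in the nucleolus, and Lyar (0.24), Nop56 (0.24), Nhp2 (0.22) and Ebna1bp2 belong to the same process. Hspd1, Hspe1 (0.26), Hsp90aa1 (0.26) and Hsp90ab1 encode chaperones. Srm (0.25) makes spermidine, from which the translation factor Eif5a (0.24) is modified. The other named risers include Mir155hg (0.29), the host gene of miR-155, the chemokine receptor Ccr4, the cytokine Lta (0.22) and Ran (0.22), which drives nuclear transport.

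To give these relations a size, cells with 10 or more Il9 UMIs of 5000 (548 cells) were set beside cells with 0 (940 cells). They are called high cells and zero cells from here on. High cells were counted after thinning and are not the same set as the Il9-high cells. Npm1 stood at 4995 CPM in the high and 3233 CPM in the zero cells. Ncl stood at 2424 against 1589 CPM, Srm at 369 against 227 CPM and Mir155hg at 326 against 153 CPM. The transcription factor Myc, a driver of ribosome production, was at 169 against 101 CPM and Lta at 187 against 93.2 CPM. Most of these are ratios below 2, seen in abundant transcripts over many cells. Mir155hg had a UMI in 65.7% of the high and in 34.3% of the zero cells.

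The cells with much Il9 were also the larger cells: before thinning, r between log2 Il9 and log2 UMIs was 0.399. Without thinning but with log UMIs held constant (partial r), 18 genes reached 0.2, and 10 of them were among the 20. Leaving out the proliferating cluster gave 22 genes with all 20 among them. Leaving out the cells with the highest doublet scores gave 25, again with all 20.

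The falling genes were led by Ly6a (r = -0.41), which encodes Sca-1, followed by Malat1 (-0.37), a nuclear RNA, Tmsb4x (-0.32), Sh3bgrl3 (-0.31) and Id2 (-0.31), a regulator that ILCs need for their development. Ly6a stood at 1309 CPM in cells with 10 or more Il9 UMIs and 3106 CPM in cells with 0. Fgl2 was at 53.3 against 193 CPM, the chemokine receptor Ccr2 at 29.6 against 121 CPM and Cysltr1, a leukotriene receptor, at 87.6 against 206 CPM. The list also held genes for chains of class I major histocompatibility complex molecules (H2-D1, H2-K1, B2m), actin-related genes (Tmsb4x, Actb, Coro1a) and S100a4 and S100a6. As each thinned cell sums to 5000, a large share of Il9 lowers all others slightly; with the 5000 UMIs counted without Il9, 30 genes fell, 28 of them among the 42, and 35 rose, 19 of them among the 20.

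**Figure D3:**
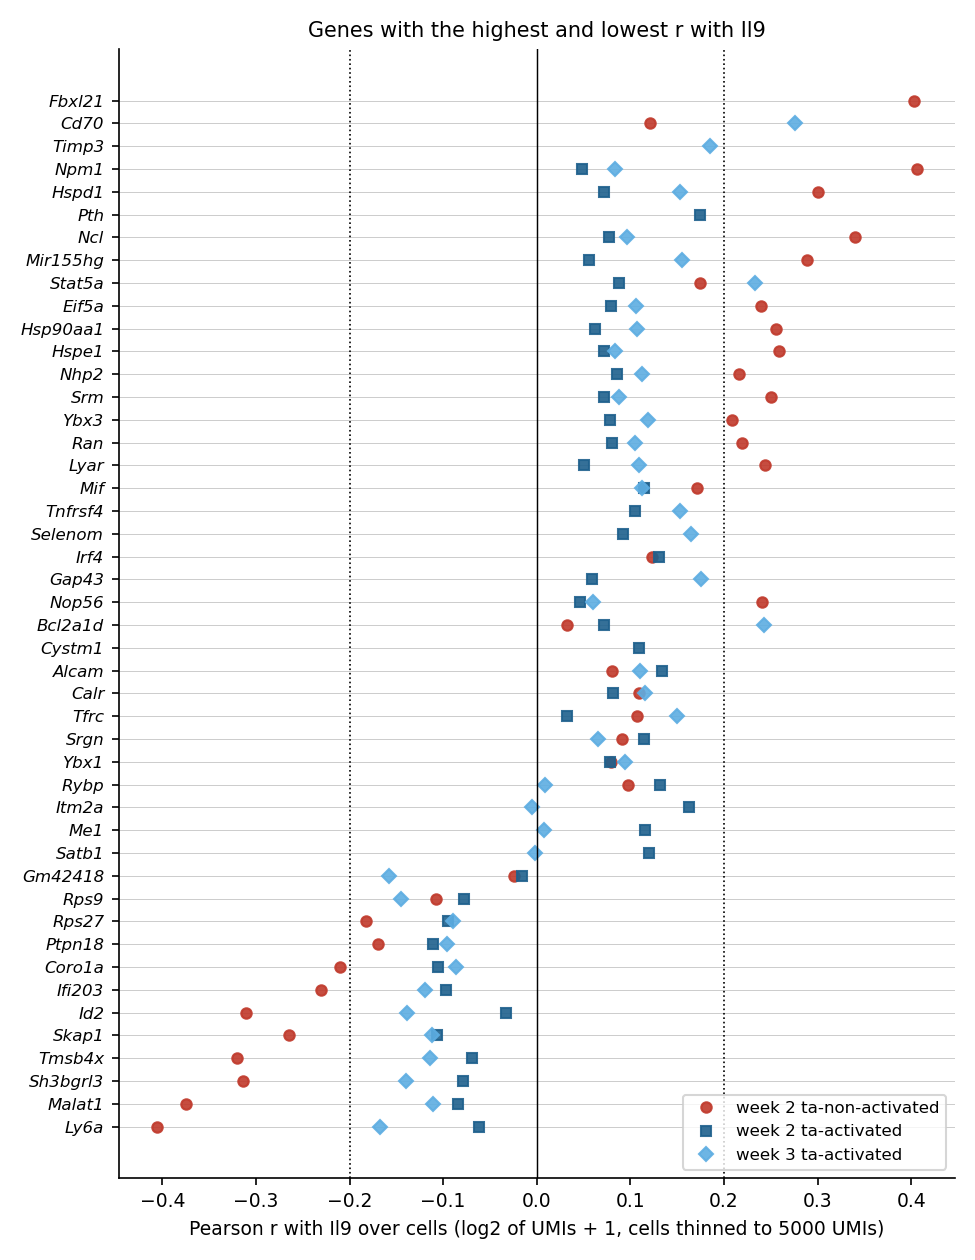
Pearson's r with Il9 over the cells of each library (horizontal axis, dotted lines at -0.2 and 0.2) for the genes with the highest and the lowest values, with circles for week 2 ta-non-activated, squares for week 2 ta-activated and diamonds for week 3 ta-activated cells, and no mark where a gene had a UMI in under 5% of cells. The circles run from -0.41 for Ly6a to 0.41 for Npm1, and the squares and diamonds of those genes lie nearer to 0 on the same side.

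In culture the relations were weaker, and few cells carried the gene. In the cultured week 2 library (2689 cells, 6884 genes) no gene reached 0.2 in either direction, 0% of those examined. The highest values were those of Pth (0.17), the gene of parathyroid hormone, Itm2a (0.16), Alcam (0.13), Rybp (0.13) and Irf4 (0.13). In the cultured week 3 library (3536 cells, 7093 genes) 3 genes, or 0.0423%, reached 0.2 and none reached -0.2. These were Cd70 (0.28), a ligand of the TNF family, Bcl2a1d (0.24), an inhibitor of cell death, and Stat5a (0.23), which carries signals of IL-2 and IL-7. By rank (Spearman's rho) none of the 3 reached 0.2.

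The rising and falling genes of the fresh library were looked up in culture. Of the 20 rising genes, 18 could be examined in each ta-activated library, and all 18 had an r above 0 in both, with medians of 0.067 in week 2 and 0.095 in week 3. Among all genes 47.5% and 46.9% had an r above 0. Of the 42 falling genes, 38 had an r below 0 in week 2 and 40 in week 3, beside 52.5% and 53.1% of all genes. The values themselves were small. The highest minimum of r over the 3 libraries belonged to Mif, the gene of macrophage migration inhibitory factor, with 0.17, 0.11 and 0.11, followed by Stat5a, Nhp2, Calr, Ran, Alcam, Eif5a, Ybx3, Ybx1 and Ncl.

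The few cultured cells with 10 or more Il9 UMIs of 5000, 15 at week 2 and 26 at week 3, were set beside the 2650 and 3446 cells with 0. At week 2 Pth stood at 3147 CPM against 148 CPM, but came from 6 of the 15 cells and was at 2043 CPM without the highest of them. Il24, a cytokine of the IL-10 family, stood at 320 against 13.4 CPM, was seen in 5 cells and was at 200 CPM without the highest of them. The receptor genes Tnfrsf4 (OX40) and Il2ra (CD25) were at 200 against 19.8 CPM and at 2080 against 749 CPM. Of the 15 Tnfrsf4 UMIs 9 came from 1 cell, and the level was 85.7 CPM without it. Irf4 was at 120 against 21.0 CPM, from 9 UMIs in the 15 cells, and was at 85.7 CPM without its highest cell.

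At week 3 Mmp10, the gene of a matrix protease, stood at 800.0 CPM against 10.4 CPM, and the chemokine gene Ccl1 at 900.0 against 20.5 CPM. Without its highest cell Ccl1 was at 600 CPM. Cd70 was at 746 against 51.5 CPM, with a UMI in 19 of the 26 cells. Bcl2a1d was at 215 against 16.2 CPM and Stat5a at 200 against 17.4 CPM. Neither Cd70, Mmp10 nor Ccl1 had a UMI in the 15 high cells of week 2, where 0 UMIs allow up to 40 CPM. Over all cells of the cultured week 2 library these genes were at 16.041, 7.4975 and 14.298 CPM, below that limit. The 0 therefore cannot tell these high cells from the rest of their library. Pth stood at 15.4 CPM in the 26 high cells of week 3, above its 0.42051 CPM over all cells of that library, where it had 26 UMIs. Among high cells the levels of these leading genes differed between the cultured libraries, each from under 30 cells of 1 library.

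Counted over genes, 198 of 1974 (10%) were 2-fold or more higher in the high cells at week 2 and 161 of 2110 (7.63%) at week 3, after 20 CPM was added to both levels. A gene had to be seen in at least 30% of the high cells to enter this count, a filter that itself favours higher genes. The lists shared 30 genes, 15.2% of the first and 18.6% of the second, among them Hspd1, Ncl, Srm, Lyar, Myc, Tnfrsf4, Tnfrsf8, Odc1 and Sdf2l1. In the other direction, with at least 30% of the zero cells required, 149 of 1776 genes (8.39%) and 148 of 1930 (7.67%) were 2-fold or more lower. The lists shared 48 genes, 32.2% and 32.4%, among them Icos, Il7r, Ccr2, Fgl2, Cd69, Ms4a4b and the interferon-induced Ifit1, Ifit3, Irf7 and Irf1. The high cells of both cultures had lower levels of Ms4a4b, at 13.3 against 463 CPM in week 2 and 30.8 against 672 CPM in week 3.

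**Figure D4:**
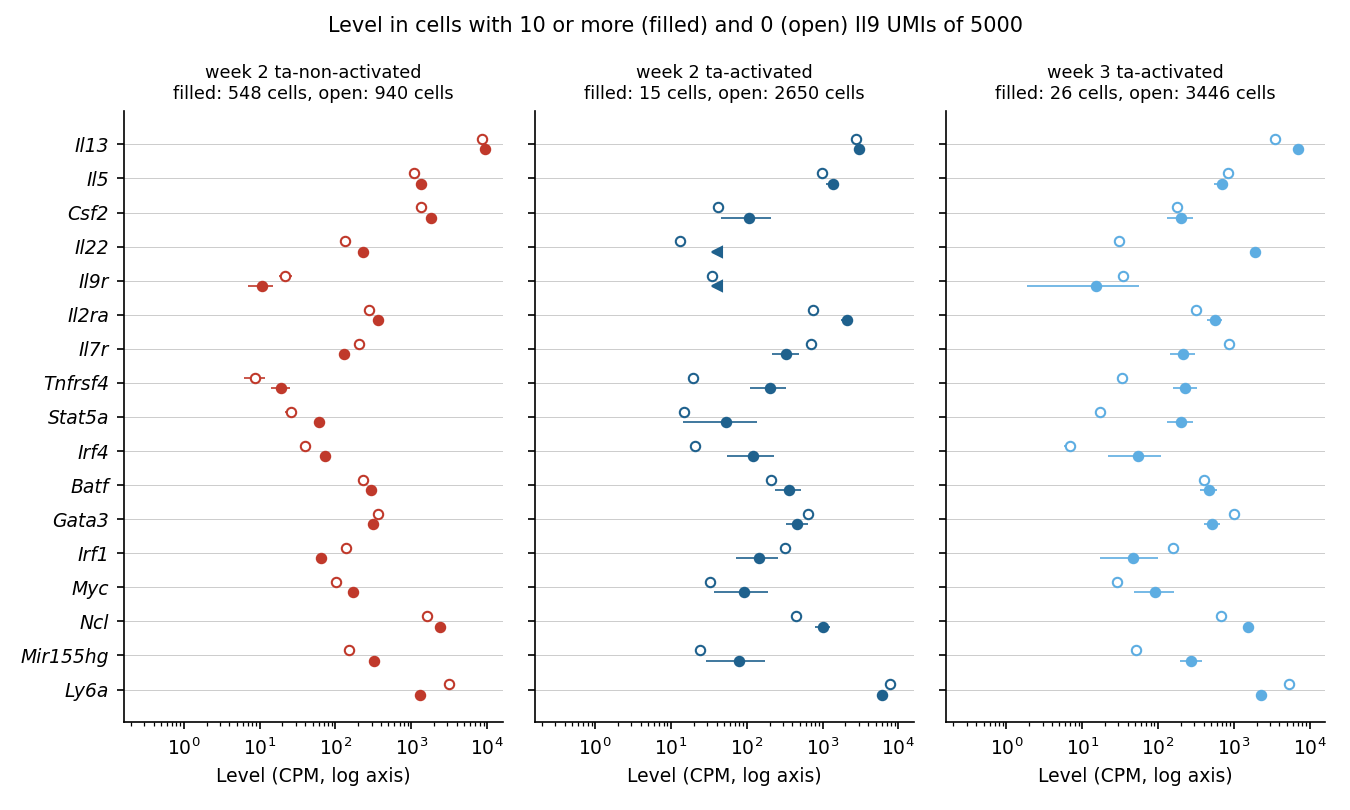
Levels (CPM, log axis) of 17 named genes in cells with 10 or more (filled) and with 0 (open) Il9 UMIs of 5000, with 95% Poisson intervals that cover counting error only and triangles for upper limits at 0 UMIs, in the week 2 ta-non-activated (548 and 940 cells), week 2 ta-activated (15 and 2650) and week 3 ta-activated (26 and 3446) libraries. Mir155hg and Ncl lie higher in the filled points of each library and Ly6a lower, while Il13 differs little in the week 2 libraries.

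Lists of genes known to act with Il9 were examined in the same way. Of the receptor and its signalling genes, 12 of 12 could be examined, and 5, 8 and 4 had an r above 0 in the week 2 ta-non-activated, week 2 ta-activated and week 3 ta-activated libraries. Stat5a had the highest r of this list in each, at 0.17, 0.09 and 0.23. Stat5a stood at 61.3 CPM in the high and 25.7 CPM in the zero cells of the fresh library. The receptor gene Il9r was at 10.6 CPM in the former and 21.9 CPM in the latter, and across libraries it was at 73.3 CPM in naive cells and at 12.3 to 34.9 CPM in the other libraries.

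Of 28 transcription factors known to act on Il9, 20 or 21 had a UMI in enough cells, and 6, 12 and 8 of these had an r above 0. Stat5a led in the fresh and the week 3 cultured library and Irf4 in the week 2 cultured library. Irf4 was at 71.9 against 39.1 CPM and Batf at 294 against 234 CPM in the high and zero cells of the fresh library. Irf1, an interferon-induced factor, was at 63.9 against 137 CPM, and Gata3, which defines ILC2s, at 311 against 366 CPM. Spi1 (PU.1), Batf3 and Etv5 were seen in too few cells for an r.

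Among 19 receptors upstream of ILC2 activation, 3 of 13, 11 of 16 and 6 of 16 had an r above 0. Il2ra was highest in the fresh library (0.12) and Tnfrsf4 in both cultured ones (0.10 and 0.15). Icos, Il7r and Cysltr1 were the lowest 3 in each of the 3 libraries. Il7r, whose product CD127 was used in the sort, stood at 130 against 206 CPM in high and zero cells of the fresh library. Cysltr1 was the 1 member of the list that reached -0.2, at -0.22 in the fresh library.

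Of 18 other cytokines of ILC2s, 8, 10 and 9 could be examined, and 5, 9 and 3 of these had an r above 0, with none at 0.2. The highest in the fresh library were Csf2 (0.14) and Il13 (0.11). Il13 was at 9359 CPM in the high and at 8588 CPM in the zero cells, Il5 at 1361 and 1101 CPM and Csf2 at 1803 and 1360 CPM. The fresh cells with 0 Il9 UMIs of 5000, some of which had an Il9 UMI before thinning, thus still held nearly the same level of Il13. At week 3 in culture Il13 was at 6977 against 3540 CPM, and Areg, the gene of amphiregulin, at 115 against 695 CPM, whereas at week 2 Areg was at 1707 against 962 CPM. Il13, Il5 and Csf2 were above 0 in all but 1 of 9 values of r, the exception being Il5 at week 3 in culture (-0.0012).

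Il22, a cytokine that acts on epithelial cells, was not on that list and had a UMI in 4.77, 0.760 and 4.13% of the cells before thinning, too few for an r. In the fresh library 57.0% of its UMIs were in the Il9-high cells, at 294 CPM there and 158 CPM in the other cells. In the cultured week 2 library none of its 1251 UMIs were in Il9-high cells. In the cultured week 3 library 4700 of 8546 Il22 UMIs (55.0%) were in 12 of the 27 Il9-high cells, and 3162 of them were in 1 cell. Over the thinned cells of that library Il22 was at 1877 CPM at 10 or more Il9 UMIs, 840 CPM without its highest cell, and 30.6 CPM at 0. Il22 was chosen for its profile over the libraries, and its cells for Il9, so this is a description.

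Of the early response genes 7 of 13, 11 of 14 and 8 of 15 had an r above 0, led by Myc (0.18) in the fresh library and by Ier3 (0.11 and 0.10) in the cultured ones. Of 20 genes of the secretory pathway 11, 17 and 16 had an r above 0, with medians of 0.0042, 0.028 and 0.031. Sdf2l1 and Calr, which act on folding in the endoplasmic reticulum, led in both cultured libraries. Of the interferon response genes 0 of 3, 0 of 12 and 1 of 12 had an r above 0, with medians of -0.097, -0.041 and -0.051. Ifit1 was at 26.7 CPM in the 15 high and 452 CPM in the zero cells of the cultured week 2 library. Few chemokine genes could be examined, 3, 0 and 2 of 11, and none reached 0.2 in size.

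Fbxl21, the gene of an F-box protein known from the circadian clock, was the only neighbour of Il9 among the rising genes. It lies at 56522472 to 56537898 of chromosome 13 on the plus strand, and its start is 40226 bases from that of Il9. Over the week 2 ta-non-activated cells its level rose with each range of Il9. It stood at 1.38 CPM below 5 Il9 UMIs per 10000, at 9.90 CPM from 5 to 20, at 20.5 CPM from 20 to 100, at 45.9 CPM from 100 to 500 and at 88.5 CPM (78.2 to 99.8) at 500 or more. The share of cells with an Fbxl21 UMI went from 1.90% in the lowest to 75.0% in the highest range. There were 34.1 Fbxl21 UMIs for each 1000 of Il9 in the lowest range and 1.27 in the highest, so the ratio between the genes was not fixed.

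Fbxl21 did not follow Il9 across libraries. In naive cells it was at 39.9 CPM, with a UMI in 930 of 6389 cells, where Il9 had 3 UMIs in all. In the week 2 and week 3 ta-non-activated libraries it was at 21.3 and 5.0 CPM, and in the ta-activated ones at 0.296 and 0.453 CPM. In the cultured libraries 2 of 17 and 6 of 28 Fbxl21 UMIs were in Il9-high cells, which were 0.518 and 0.706% of the cells. Within these libraries Fbxl21 was at 7.71 CPM (1 UMI) and 6.77 CPM (4 UMIs) at 100 to 500 Il9 UMIs per 10000. It was at 0.266 and 0.369 CPM below 5 and had 0 UMIs from 5 to 20 in both. The other neighbours within the same stretch, Slc25a48, Lect2, Tgfbi and Gm3045, had 0 to 25 UMIs in any library. Fbxl21 does not overlap Il9 in the gene models.

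**Figure D5:**
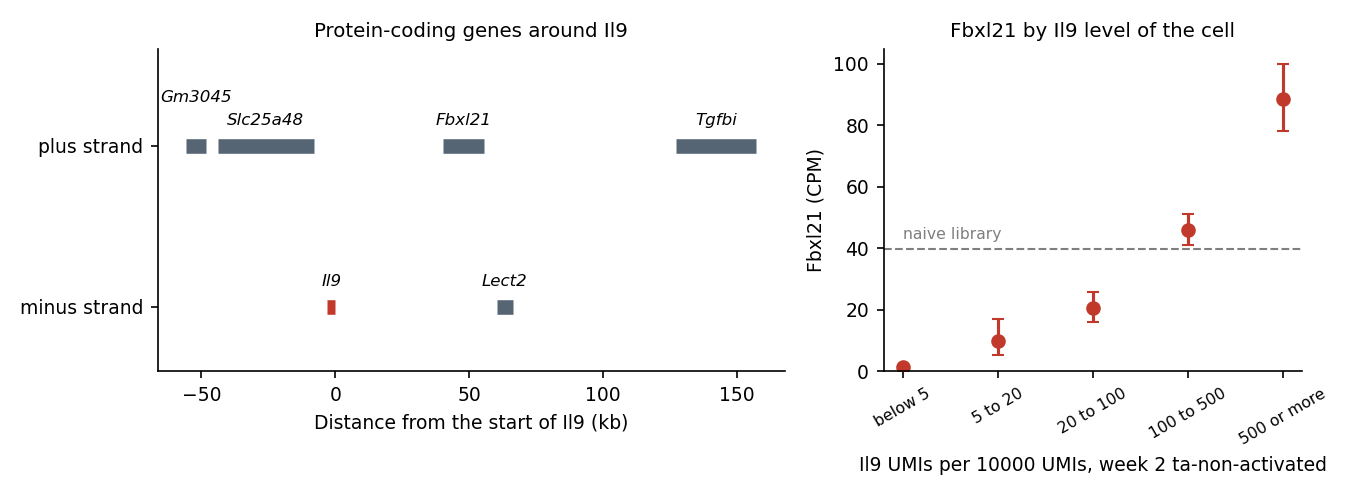
Left, the protein-coding genes around Il9 by strand, with the distance from the start of Il9 in kilobases; right, the Fbxl21 level (CPM, 95% Poisson intervals) of week 2 ta-non-activated cells by range of Il9 UMIs per 10000, with the naive level as a dashed line. Fbxl21 goes from 1.38 to 88.5 CPM over the ranges, and stands at 39.9 CPM in naive cells, where Il9 had 3 UMIs in all.

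Across the 5 libraries, the genes whose log2(CPM + 1) profile lay closest to that of Il9, by root mean square distance after centring, were Il13 (2.17), Il22 (2.82), Tph1 (2.84), Tlr2 (3.17) and Upp1 (3.19). Il13 was at 55.6 CPM in naive, 8861 and 19.6 CPM in week 2 and week 3 ta-non-activated, and 3502 and 4318 CPM in week 2 and week 3 ta-activated libraries. Tph1, which starts the synthesis of serotonin, was at 6.2, 424, 3.83, 200 and 1651 CPM in the same order. Il22 was at 5.46, 214, 0.319, 21.8 and 138 CPM. Each of the 5 was higher in week 2 fresh cells and in culture than in naive and week 3 fresh cells, but the 109.73-fold difference of Il9 between fresh and cultured cells of week 2 stood beside 9.83-fold for Il22, 2.53-fold for Il13 and 2.12-fold for Tph1.

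The test that the design allows across genes, edgeR's quasi-likelihood test of the 2 ta-activated against the 2 ta-non-activated libraries on summed counts, called 0 of 12643 genes (0%) at an adjusted p under 0.05. There were 2120 genes at an unadjusted p under 0.05, and DESeq2 called 1041. By edgeR none of the lists had a called member. DESeq2, which called 8.23% of genes (4.56% as higher and 3.68% as lower), called all 12 interferon response genes as higher, 9 of 26 early response genes as lower, and 6 of 19 receptors as higher with 1 lower. In the other 5 lists it called 0 to 3 members, the most among the chemokines, where 3 of the 10 tested were called as lower. The median log2 fold change (ta-activated over ta-non-activated) was 0.77 for the 12 IL-9 receptor and signalling genes, 0.15 for the 28 transcription factors and 1.45 for the 19 receptors, beside -0.019 over all genes tested. It was 4.17 for the 12 interferon response genes and -1.61 for the 26 early response genes. The early response genes did not all fall in both weeks. Fos was at 0.692 CPM in fresh and 1.95 CPM in cultured cells of week 2, but at 592 and 1.42 CPM at week 3. Fosb, Nr4a2 and Dusp1 were likewise lower in culture at week 3 only. Myc, Jun and Ier2 were lower in both, Myc at 121 against 46.1 CPM and then 60.9 against 39.2 CPM in fresh and cultured cells.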

How the data were processed

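The authors sorted lung cells, prepared 10x Genomics 3′ libraries and deposited, per the labels, 1 matrix of raw UMI counts for each of the 5 libraries. Cell Ranger 3.0.2 and GRCm38 are named in the submitters' processing notes, and the header of the naive matrix gives Cell Ranger 6.0.0, so the naive library may have been counted differently. The annotation used is not given in the sources used here.

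Barcodes with 200 or more genes and under 5% mitochondrial counts were kept. Depth ranged from 9394957 to 61830293 UMIs per library. Il9 levels are CPM of the summed counts with 95% exact Poisson intervals, and shares of cells have exact binomial intervals. A count of 0 was given the limit of 3 UMIs. For shares, cells were thinned to 2000 UMIs, and for co-variation to 5000, with a fixed seed (Python 3.11.15, numpy 2.4.6, scipy 1.17.1). Cells were clustered with Seurat 5.3.0 after integration (2000 variable genes, 30 dimensions, resolution 0.2), and clusters were named from marker lists. Scrublet, as run in scanpy 1.11.5, marked only 0 to 15 cells per library and did not work, so no doublets were removed. As an alternative, cells above the cut for the highest 6% of scores were left out.

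The ta-activated and ta-non-activated libraries were compared across genes with edgeR 4.0.16 (quasi-likelihood test, TMM, filterByExpr, Benjamini-Hochberg adjustment, threshold 0.05), with no week as covariate. The procedure was tested on simulated data. DESeq2 1.42.0 in R 4.3.3 was an alternative. The week number is the only replicate label, and each library is a pool of mice. The p-values therefore measure the spread between weeks, in which time, mouse pool and preparation cannot be told apart. They do not measure the spread between single mice.

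Il9, the gene lists and the tests were chosen with earlier results of these data known. Named genes are the 10 with the highest and the 5 with the lowest r in each of the 3 libraries, the 10 with the highest minimum r, the 5 closest profiles over the libraries and the list members. Genes named for their ratio between high and zero cells, the neighbours of Il9, Pth in other libraries and Il24 were chosen after their values were seen. One alternative, thinning to 5000 UMIs counted without Il9, was likewise chosen after seeing the data. RefSeq promoters of GRCm38.p6 were searched on both strands for 7 sets of letters.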

Additional observations from a re-analysis of the deposited data

Results flagged for a closer look

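Il9 moved in opposite directions with culture in the 2 weeks: at week 2 its level was 109.73-fold lower in cultured than in fresh cells and at week 3 it was at least 1070.5-fold higher. The 5 genes with the closest profiles over the libraries were chosen on these same levels, so their directions are a description. For Il13 the level was 2.5307-fold lower in culture at week 2 and 220.45-fold higher at week 3 (counting interval 190.79 to 256.14). Il22 was 9.8281-fold lower and then 432.86-fold higher, the latter with an interval of 148.06 to 2099.3, as the week 3 ta-non-activated library held 3 UMIs of it. Tph1 was 2.122-fold lower and 430.92-fold higher, and Tlr2 was 1.829-fold lower and 23.046-fold higher. Csf2, the gene of GM-CSF, was 23.878-fold lower at week 2 and 5.7856-fold higher at week 3. Other genes did not turn: Upp1, the fifth of the closest profiles, was higher in culture in both weeks (2.30-fold and 309-fold), as was Il5 (1.08-fold and 18.9-fold), and Fbxl21 was lower in both (71.8-fold and 11.0-fold). With 1 library for each week and condition the difference between the weeks was not tested, and Il9 was chosen for it. Among fresh week 3 cells the ILC2 marker list summed to 2004 CPM, against 12412 CPM at week 2. Il13 and Il5 are on that list, at 19.6 against 8861 CPM and at 49.0 against 1224 CPM, and made up most of this gap. In the fresh week 3 library 712 of 1601 cells were early-thymocyte-like. The part of such cells in the week 3 values was not tested for the other genes, while Il9 had 0 UMIs in the 529 ILC2-like cells as well.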

How the results depend on the processing

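Of 123 alternative values, 75 stayed within the counting interval of the main value (for counts of genes, within 1.5 times of it) and 48 did not. Of the 48, 27 differed from the main value by over 1.5 times, among them each of the 15 counts of rising or falling genes. The Il9 level of week 2 ta-non-activated cells went from 12576 CPM to 12770 with all barcodes, 12758 at a mitochondrial limit of 10%, 12690 without the other named cell types, 12840 without the highest doublet scores and 12737 with Il9 left out of the denominator. In week 2 ta-activated cells it became 98.3, 99.3, 121 and 120 CPM under the first 4 of these, and in week 3 ta-activated cells 331 without the other cell types and 359 without doublet scores. At resolution 0.4, among clusters of 20 or more cells, the highest and lowest of week 2 ta-non-activated cells were at 16433 and 7344 CPM. The highest of these in culture were at 320 CPM in week 2 and 766 CPM in week 3. Smaller clusters were not ranked. They ran from 34.1 CPM (8 cells) to 24221 CPM (2 cells) in the fresh week 2 library, and a cluster of 19 cells in the cultured week 3 library was at 1552 CPM.

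Shares of cells depended on depth. They were 58.8% unthinned, 35.1% at 1000, 46.2% at 5000 UMIs and 32.9% for at least 2 UMIs in week 2 ta-non-activated cells, 2.45% unthinned and 1.45% at 5000 in week 2 ta-activated cells, and 4.66%, 2.55% and (at least 2 UMIs) 1.02% in week 3 ta-activated cells. The naive share was 0 at 1000 UMIs, at 5000 UMIs and for at least 2 UMIs. The top 10% of week 2 ta-non-activated cells held 67.3% of Il9 UMIs, and 71.1% unthinned, 68.4% at 1000 and 65.8% at 5000.

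Counts of rising and falling genes followed the threshold. In week 2 ta-non-activated cells 4 rose and 14 fell at 2000 UMIs, 65 and 100 at an r of 0.15, 4 and 7 at 0.3, and 35 rose with the UMIs counted without Il9. In week 2 ta-activated cells 1 rose by partial r and 2 at 0.15. In week 3 ta-activated cells 0 rose by Spearman's rho, 10 by partial r, 1 at 2000 UMIs, 9 at 0.15 and 0 at 0.3, and 2 fell at 0.15.

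In the comparison across genes DESeq2 called 1041 genes against 0 by edgeR, and leaving out 1 library gave 0 to 1646 calls (1646 without week 2 ta-non-activated, 513 without week 3 ta-non-activated); the lone library left is then assumed to vary like the other group. With the week as a block edgeR called 0 genes, and the week 2 libraries did not deviate together (r = -0.062), so the shared week was not used as a pairing. Depth limits the week 3 ta-non-activated library most, where 0 UMIs allow up to 0.319 CPM.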
